A study of Rattus norvegicus with 2 samples.

Results

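The genes described here are 10 antimicrobial and mucosal defence genes of the rat, Slpi, Wfdc2, Defb4, Defb14, Defb1, Camp, Lcn2, Ltf, Pigr and Nos2. They were chosen by name, and each was read from the probe set that carries its symbol alone in the platform annotation, or, where there were several, from the one with the highest mean of both arrays. All 10 had such a probe set, among 22093 genes in all. RNA came from NRK cells, here keratinocytes grown from the epidermis of newborn rats, in medium that held 10% serum and hydrocortisone. One array holds cells given 5 µM all-trans retinoic acid (RA), a vitamin A metabolite that acts through nuclear receptors, for up to 5 days (RA array). RA was dissolved in dimethyl sulfoxide, and medium was renewed every 24 h. The other array, of the same day, has a title that names no treatment (array without RA). The series' design names only RA and vehicle, so the second array was taken as the vehicle control. Whether the RNA of an array came from 1 culture or from a pool is not in the labels, which also name no strain.

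With 1 array per group no value has an error and no test was possible. Levels are given as the deposited log2 signals. A difference is the level with RA less the level without RA, and 1 log2 unit is called 2-fold. Of 22093 genes, 14274 reached the floor of 3.81, the median of all values, on at least 1 array. The floor does not mark detection, since 1153 probe sets whose IDs mark them as negative controls had medians of 4.47 on the RA array and 4.57 on the array without RA. Fewer cells of a type and less RNA per cell cannot be told apart in such samples.

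Epithelia defend their surface with secreted proteins that kill microbes, starve them of iron or restrain proteases. Beta-defensins and cathelicidin are small cationic peptides that disrupt microbial membranes, and keratinocytes make several of them in response to interleukins and microbial products. Lipocalin 2 and lactoferrin withhold iron, WAP-domain proteins such as SLPI inhibit proteases, and the polymeric immunoglobulin receptor carries IgA and IgM across mucosal epithelia. Nos2, the inducible nitric oxide synthase, is an intracellular enzyme, and PIGR is a membrane protein whose outer part is released, so the name "secreted" fits the other 8 products more closely.

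The 10 genes divided between both directions. Of the 8 that reached the floor, Lcn2, Pigr and Nos2 were past 2-fold and higher with RA, as were 7.88% of all genes that reached the floor. Slpi, Defb4 and Defb14 were past 2-fold and lower with RA, as were 5.63% of all genes that reached the floor. Of the 1153 negative controls, larger shares passed 2-fold, 11.9% higher and 15.7% lower with RA, so a difference of 2-fold alone, here and in the lists below, is within what control probe sets showed. Wfdc2 and Defb1 differed by less than 2-fold, and Ltf and Camp lay under the floor on both arrays. The median difference of the 8 genes was 0.10, beside -0.03 for all genes above the floor. That median describes no common direction, since the mean of the same 8 differences was -0.35.

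**Figure D1:**
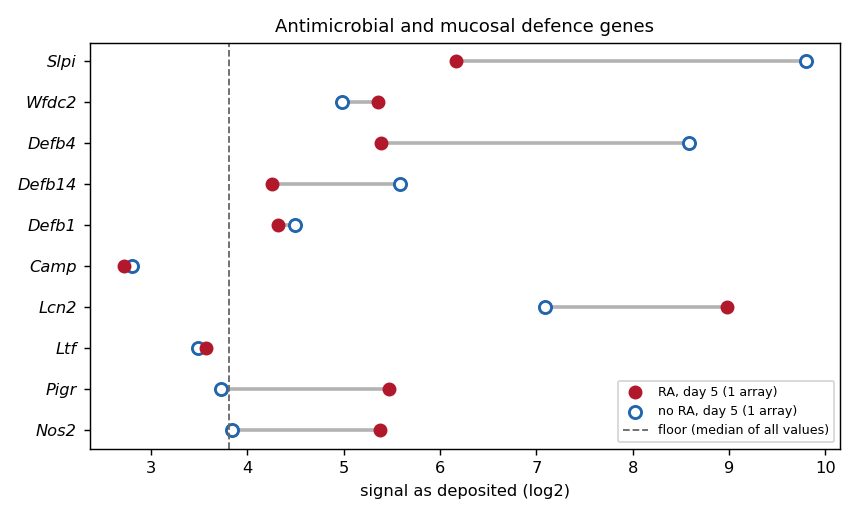
Log2 signal of the 10 genes on the RA array (filled) and on the array without RA (open), 1 array each, with the floor of 3.81 as a dashed line. Slpi and Defb4 show the widest gaps, both with the lower signal on the RA array, and Pigr and Nos2 lie at the floor without RA.

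Promoter windows are shown for Lcn2 and Pigr, the higher genes for which RefSeq windows were at hand. Windows were matched by symbol for 5 of the 10 genes (Camp, Lcn2, Ltf, Pigr and Wfdc2). Each runs from 250 bases before the annotated start to 50 after it, 5′ to 3′ on the gene's own strand, in build GRCr8 (RefSeq). Capitals mark matches to any of 5 motifs searched on both strands.
Lcn2, chr3:36081731-36082030, minus strand: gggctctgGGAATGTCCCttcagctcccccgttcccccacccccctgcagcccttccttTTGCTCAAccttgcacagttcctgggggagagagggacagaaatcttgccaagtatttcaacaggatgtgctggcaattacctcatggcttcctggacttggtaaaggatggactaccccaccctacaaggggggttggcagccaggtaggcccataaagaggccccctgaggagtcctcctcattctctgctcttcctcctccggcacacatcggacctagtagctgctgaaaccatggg
Pigr, chr13:44850932-44851231, plus strand: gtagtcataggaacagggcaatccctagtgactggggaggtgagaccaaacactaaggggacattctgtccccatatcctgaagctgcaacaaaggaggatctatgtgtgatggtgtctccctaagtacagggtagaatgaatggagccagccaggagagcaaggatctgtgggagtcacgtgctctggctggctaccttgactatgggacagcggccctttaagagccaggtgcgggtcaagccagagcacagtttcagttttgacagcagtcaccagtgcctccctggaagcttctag

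In the Lcn2 window the capitals mark a match to the NF-kappaB consensus on the other strand, starting at -242 from the annotated start, and a match to the C/EBP letters TTGCNNAA at -191. Among all 33469 windows of this length, 7.51% held the NF-kappaB consensus and 10.6% the C/EBP letters. The Pigr window held none of the 5 motifs. The hexamer of retinoic acid receptor sites, AGGTCA, was found in the Ltf window, at -46, and in none of the other 4 windows, against 16.2% of all windows. The STAT letters TTCNNNGAA (8.87% of all windows) and the TATA letters TATAAA (14.2%) matched in none of the 5, and the Camp window held the NF-kappaB consensus at 18 bases after the start, in letters that read the same on both strands. These matches are letters only and say nothing of binding.

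Slpi, which encodes the secretory leukocyte protease inhibitor, had the largest difference of the 10. Its signal was 6.17 on the RA array, against 9.80 on the array without RA. The difference of -3.63 is a 12.4-fold lower signal on the deposited scale, and 114 of 14274 genes above the floor had a more negative one. Among the 1536 genes whose mean signal lay within 0.5 units of that of Slpi, 9.44% were at least 2-fold lower. The 29 negative controls in the same range of signal had a central 95% of differences from -1.92 to 1.46, and Slpi lay outside it.

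Wfdc2, a WAP-domain protein of the reproductive tract and airway, gave 5.36 with RA and 4.98 without RA. Its other probe set gave 4.46 with RA and 4.20 without RA. Both differences, 0.37 and 0.27, were far under 2-fold. Slpi and Wfdc2 encode proteins with the same kind of domain, and only Slpi passed 2-fold.

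The remaining WAP-domain and related genes (Wfdc genes, Wap, Eppin, Anos1 and Spint4) included 3 lower and 0 higher of the 9 that reached the floor, while another 12 lay under it. Over all genes that reached the floor, 5.63% were past 2-fold and lower and 7.88% past it and higher. Wfdc18 was at 4.92 with RA and at 9.14 without RA. Wfdc5 was at 5.86 with RA and at 9.41 without RA. Anos1, which encodes anosmin, an extracellular matrix protein with a WAP domain, was at 5.04 with RA and at 7.13 without RA. The median of the 9 differences was -0.04.

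The beta-defensin genes were unequal. Defb4, which RefSeq also lists as Defb2 and Defb3 and whose mouse namesake is induced by infection, had a signal of 5.39 with RA and of 8.58 without RA. The platform also has a separate gene under the symbol Defb2, at 4.18 with RA and 3.95 without RA, counted below with the other beta-defensins. The difference of -3.19 is 9.16-fold on the deposited scale, and 150 genes had a more negative one. Of the 2010 genes of similar mean signal, 6.82% were at least 2-fold lower. It lay outside the central 95% of the 87 negative controls of similar signal, which ran from -2.80 to 2.23.

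Defb14, the rat counterpart of a mouse beta-defensin that is induced in skin, was at 4.26 with RA and at 5.58 without RA. Its difference of -1.32 passed 2-fold, as did 2.41% of the 2116 genes of similar signal in that direction. The difference lay within the central 95% of the 251 negative controls of similar signal, from -2.70 to 2.06. Defb1, a beta-defensin that epithelia make without induction, was at 4.32 with RA and at 4.50 without RA, a difference of -0.18. Both Defb1 values, and the Defb14 value with RA, lay under the negative control medians (4.47 with RA, 4.57 without RA). The differences of these genes are therefore not well measured.

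Among the other 35 beta-defensin genes with a probe set, 19 reached the floor, and 0 were at least 2-fold higher or lower. Their median difference was -0.04. Most of the 19, Defb2 among them, lay under the medians of the negative controls on both arrays and could not show a lower level with RA. Defb5, at 4.64 with RA and 5.58 without RA, came closest to 2-fold, with -0.95. Beta-defensin genes are related in sequence, so their probe sets may share signal.

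The lower genes were also set beside their neighbours on the chromosome, taking the 5 protein-coding genes on each side in the RefSeq order of GRCr8. Of the 10 neighbours of Slpi on chromosome 3, 9 had a value, 6 reached the floor and 0 were 2-fold higher or lower. Sdc4, which encodes the cell surface proteoglycan syndecan 4, had the largest difference among them, 0.37, with 11.52 on the RA array and 11.16 on the array without RA. Sys1 was at 7.22 with RA and at 7.32 without RA. The other 4 lay under the medians of the negative controls on both arrays and could not show a lower level with RA. Defb4 lies between Defb5 and Defb14 on chromosome 16. Of its 10 neighbours, 6 had a value, and Defb51, Defb5 and Defb14 reached the floor. Defb5 and Defb14 had differences of -0.95 and -1.32, and Defb51 reached the floor only without RA, at 3.95.

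**Figure D2:**
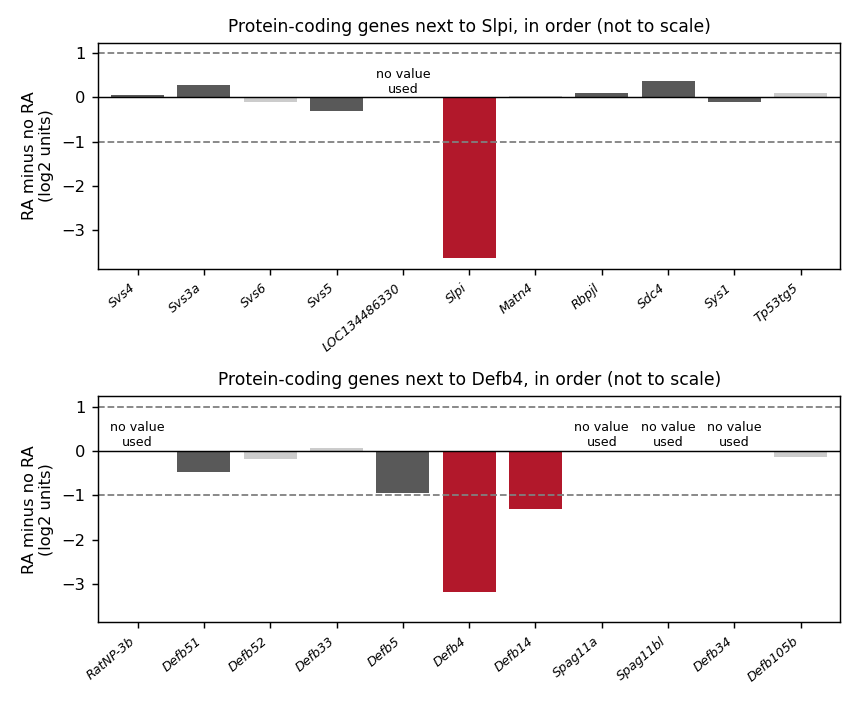
Difference in log2 units (RA minus no RA) of Slpi and Defb4 and of the 5 protein-coding genes on each side, in chromosome order and not to scale. Red bars are genes of the described set, dark grey bars other genes above the floor and light grey bars genes under it. Slpi is at -3.63, beside neighbours of which only Sdc4 and Sys1 had signal well above the negative controls, and Defb4, at -3.19, is flanked by Defb14 at -1.32 and Defb5 at -0.95.

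Camp, which encodes the cathelicidin peptide precursor, was at 2.71 with RA and at 2.80 without RA, under the floor on both arrays. No difference can be read from values at that level. Ltf, which encodes lactoferrin, was likewise under the floor, at 3.57 with RA and at 3.49 without RA.

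Lcn2, whose product binds bacterial siderophores and so withholds iron, was the brighter case among the higher genes. Its signal was 8.98 on the RA array, against 7.08 on the array without RA. The difference of 1.90 is a 3.73-fold higher signal on the deposited scale, and 482 genes above the floor had a larger positive one. Of the 1514 genes of similar mean signal, 11.7% were at least 2-fold higher. The 28 negative controls of similar signal had a central 95% from -1.92 to 1.47, and Lcn2 lay above it. With 28 controls, the ends of that range rest on few probe sets. The 399 probe sets whose IDs mark them as positive controls, taken at all signals, had a central 95% from -1.72 to 2.14. Lcn2 lay inside that range.

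The lipocalin 2 receptor gene Slc22a17 was at 4.48 with RA and at 4.47 without RA. Mmp9, whose product forms a complex with lipocalin 2, and the endocytic receptor gene Lrp2 lay under the floor. Among the 11 iron handling genes that reached the floor, 1 passed 2-fold in each direction. The shares over all genes were 7.88% higher and 5.63% lower, so this count is near them. Tfrc, the transferrin receptor gene, was at 12.21 with RA and at 10.27 without RA. Steap4, a metalloreductase gene, was at 8.92 with RA and at 10.36 without RA. The ferritin genes Fth1 and Ftl1 differed by 0.20 and 0.41, and the ferroportin gene Slc40a1 by 0.21.

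Pigr was at 5.47 on the RA array and at 3.72, under the floor, on the array without RA. Its difference was 1.75. The value without RA also lies under the negative control median of 4.57, so the size of the difference is not well measured. Of the 2438 genes of similar mean signal, 2.54% were at least 2-fold higher. The difference nevertheless lay within the central 95% of the 286 negative controls of similar signal, from -2.55 to 2.20. Irf1, a transcription factor gene of the interferon response that is known to act on the PIGR gene in human cells, was at 10.71 with RA and at 6.0 without RA.

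Nos2 was at 5.38 with RA and at 3.84, just above the floor, without RA. A further probe set of the gene gave 4.41 with RA and 3.43 without RA. The differences were 1.54 and 0.98, the second just short of 2-fold. Both values of the further probe set, and the 3.84 without RA, lay under the negative control medians (4.47 with RA, 4.57 without RA). The size of the differences is therefore not well measured, and the further probe set adds little. Of the 2423 genes of similar signal, 2.56% were at least 2-fold higher, and 280 negative controls of similar signal had a central 95% from -2.57 to 2.22, which includes Nos2. Of the 6 genes of the set past 2-fold, Slpi, Defb4 and Lcn2 lay outside the range of their negative controls, and Pigr, Nos2 and Defb14 lay inside it. Only Slpi and Defb4 also lay outside the range of the positive controls, from -1.72 to 2.14.

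**Figure D3:**
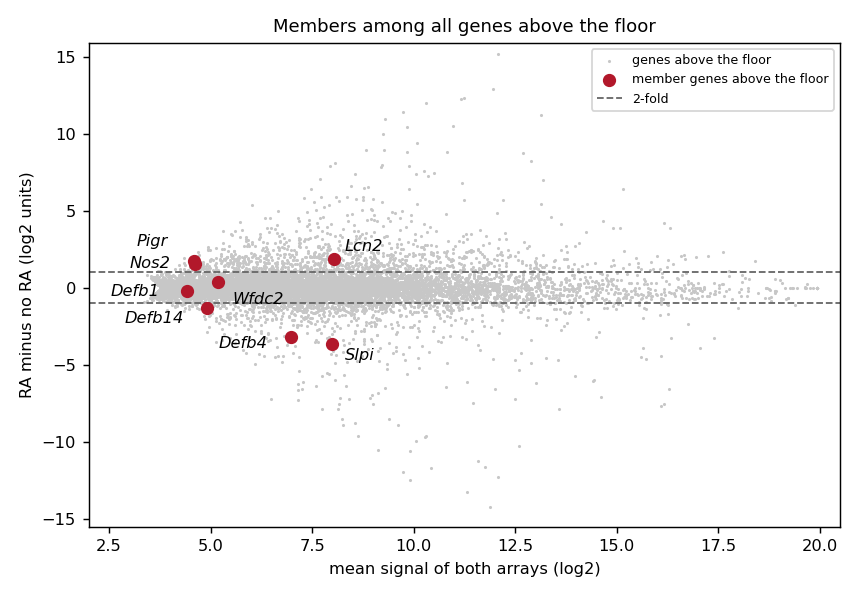
Difference (RA minus no RA, log2 units) against the mean signal of both arrays (log2) for the 14274 genes above the floor, in grey, with the 8 genes of the set in red and 2-fold as dashed lines. Slpi (-3.63) and Defb4 (-3.19) lie below the band of most genes and Lcn2 (1.90) above it, while Pigr (1.75), Nos2 (1.54) and Defb14 (-1.32) pass 2-fold at low signal.

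Genes around nitric oxide and its substrate arginine were measured as a list that leaves out Nos2. The list had 19 genes, 14 of which reached the floor, and 6 of these were past 2-fold and higher with RA, while 0 were past it and lower. For this list and those that follow, the shares over all genes were 7.88% higher and 5.63% lower. The median of the 14 differences was 0.80. Gchfr, the feedback regulator of GTP cyclohydrolase, was at 8.42 with RA and at 4.85 without RA. Gch1, the cyclohydrolase gene itself, which starts the synthesis of the synthase cofactor tetrahydrobiopterin, was at 6.58 with RA and at 4.75 without RA.

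The later enzymes of cofactor synthesis, Pts and Spr, differed by 0.71 and 0.77, under 2-fold. Txnrd1, the thioredoxin reductase gene, was at 10.47 with RA and at 6.96 without RA. Ddah1, whose product degrades methylated arginines that inhibit the synthases, was at 10.05 with RA and at 8.0 without RA. Enzymes that lead arginine to other products were also among the 6, namely Arg1 (arginase 1), at 6.66 with RA and 5.08 without RA, and Odc1 (ornithine decarboxylase), at 8.80 with RA and 6.96 without RA. The arginine-forming enzymes Ass1 and Asl differed by 0.83 and 0.60. The other synthase genes, Nos1 and Nos3, lay under the floor.

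**Figure D4:**
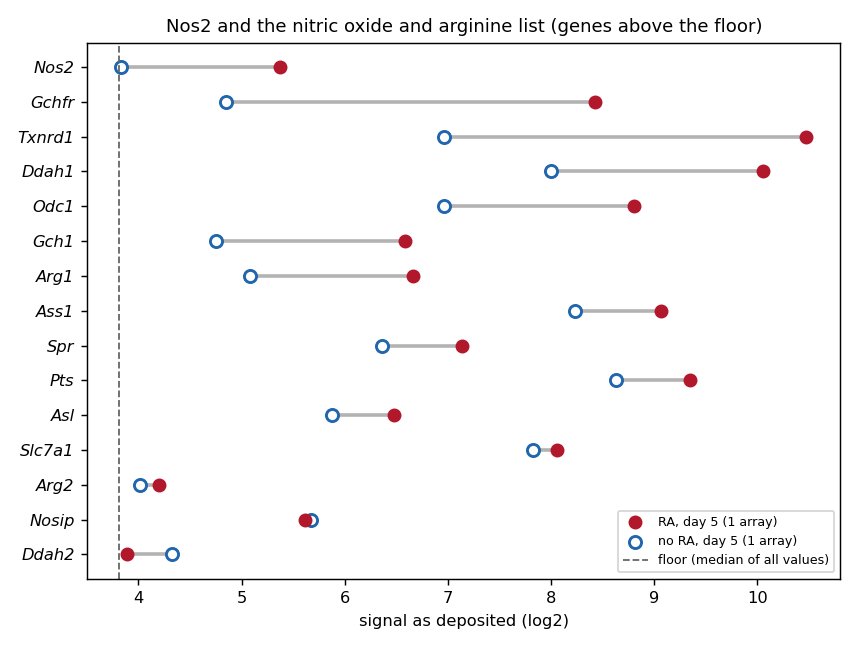
Log2 signal of Nos2 and of the 14 genes of the nitric oxide and arginine list that reached the floor, on the RA array (filled) and on the array without RA (open), 1 array each. The genes below Nos2 are ordered by difference, with Gchfr (3.57) and Txnrd1 (3.51) at the top and Ddah2 (-0.44) at the bottom.

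Genes of the epithelial oxidases, which release hydrogen peroxide or superoxide, had the opposite count. Among the 6 that reached the floor, 2 passed 2-fold and were lower with RA, and 0 were higher. Duox1, a dual oxidase gene, was at 7.31 with RA and at 10.60 without RA. Duoxa1, its maturation factor, was at 7.57 with RA and at 9.49 without RA. Duox2 differed by -0.82.

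Other secreted antimicrobial genes were again divided. There were 34 with a probe set, and 18 of them reached the floor. Past 2-fold were 4 higher genes and 2 lower genes, and the median difference was 0.07. S100a9, a subunit of calprotectin, was at 9.62 with RA and at 5.69 without RA, whereas its partner S100a8 differed by 0.36. S100a7a, a psoriasin-type gene, was at 7.85 with RA and at 4.56 without RA. Adm, which encodes the peptide adrenomedullin, was higher by 1.88.

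Among the peptidoglycan recognition proteins, Pglyrp3 was at 5.05 with RA and at 8.73 without RA, and Pglyrp4 at 10.15 with RA and at 8.96 without RA. These 2 genes thus passed 2-fold in opposite directions. Ccl20, a chemokine with antimicrobial activity that shares the receptor CCR6 with beta-defensins, was at 6.5 with RA and at 10.95 without RA. The receptor gene Ccr6 lay under the floor, as did Lyz2, Reg3g, Bpifa1 and Bpifb1. Among the 8 receptor and partner genes that reached the floor, 2 passed 2-fold, both higher with RA. They were Plscr1, a phospholipid scramblase whose product binds SLPI (6.23 with RA, 4.67 without RA), and Grn, the progranulin gene, whose product SLPI shields from elastase (14.52 with RA, 13.27 without RA). Anxa2 stood at the highest value of the table, 19.93, on both arrays, so it gives no difference.

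Genes of the signalling that is known to act on such genes in epithelia were measured as a list of 39 genes. Not all of them are inducers, since Zc3h12a, named below, limits such a response. Past 2-fold were 5 higher and 8 lower genes of the 33 that reached the floor, and the median difference was -0.19. Il20rb, a receptor subunit for interleukins of the IL-20 group, was at 5.61 with RA and at 10.50 without RA. Vdr, the vitamin D receptor, which in human cells induces the cathelicidin gene, was at 5.88 with RA and at 8.39 without RA. The interleukin-1 receptor genes Il1r1 and Il1rap and the interleukin-36 receptor gene Il1rl2 had differences of -1.58, -1.23 and -1.27.

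Il22ra1 and Il17rc, receptor subunits for interleukin-22 and interleukin-17, had differences of -1.15 and -1.11, and the adaptor gene Myd88 had one of -1.02. Il17ra, the shared interleukin-17 receptor subunit, differed by -0.19. Beside Irf1, the higher genes were Tlr5, the flagellin receptor, at 11.21 with RA and at 4.17 without RA, Zc3h12a, an RNase that limits interleukin-17 responses, at 9.62 with RA and at 7.5 without RA, and the receptor subunits Ifngr2 and Il10rb, higher by 1.81 and 1.46. Nfkbiz, a nuclear IkappaB protein that is needed for Lcn2 induction in mouse cells, differed by 0.44, and Cebpb and Cebpd by -0.31 and -0.42.

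**Figure D5:**
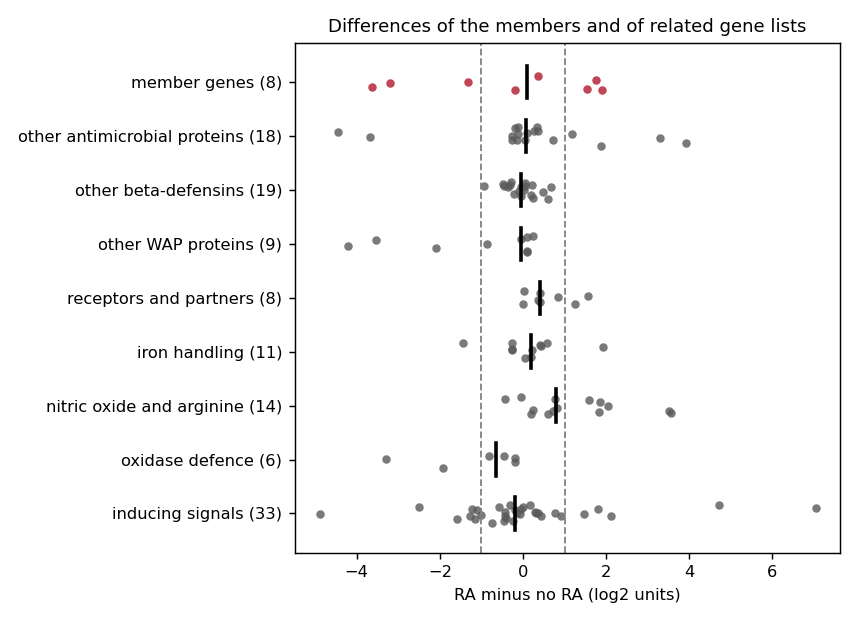
Differences (RA minus no RA, log2 units) of the 8 genes of the set that reached the floor and of the genes above the floor in 8 related lists, 1 point per gene, with the number of genes in brackets, the median as a black line and 2-fold as dashed lines. The nitric oxide and arginine list has the highest median, 0.80, and the oxidase list the lowest, -0.64.

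Cell type markers also differed between the arrays. All 12 keratinocyte markers with a probe set reached the floor. Past 2-fold, 8 of them were lower with RA and 0 were higher, and their summed log2 signal was 133.5 on the RA array and 190.1 on the array without RA. Of the basal markers, Krt15 and Itga6 were at 19.65 and 11.66 on the RA array and at 19.60 and 11.94 without RA. Krt14 was at 12.25 with RA and at 19.93 without RA, and the basal gene Col17a1 at 6.71 with RA and 11.96 without RA. Itgb4 differed by -0.63. The desmosomal genes Dsg3 and Dsc3 were also lower, with differences of -6.18 and -4.50. The suprabasal keratin genes Krt1 and Krt10 had the largest differences of the list, at 4.78 and 5.94 with RA and at 18.98 and 17.59 without RA, where the negative control medians were 4.47 with RA and 4.57 without RA. The value 19.93 is the highest in the table, so the difference of Krt14 is a lower bound. Glandular and mucosal epithelium had 14 markers that reached the floor, 10 past 2-fold and higher and 1 past it and lower, and the 21 genes of the list summed to 168.9 with RA and 117.2 without RA. The largest differences of that list were those of Krt4 (17.28 with RA, 5.06 without RA), Muc4 (13.29 with RA, 4.36 without RA), Elf3 (14.22 with RA, 6.77 without RA) and Krt7 (18.37 with RA, 11.94 without RA), followed by Cldn3 and Muc13, higher by 4.54 and 4.30. The 1 lower marker was the keratin gene Krt13, at 14.29 with RA and 15.66 without RA, so it was high on both arrays. Krt8 (5.14 with RA, 5.00 without RA), Tff1 and Spdef differed by less than 2-fold. Ltf, Bpifa1, Bpifb1, Agr2, Tff2, Tff3 and Krt18 of the list lay under the floor on both arrays. The part of these shifts in the values above was not tested.

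Neutrophils and macrophages carry Ltf, Camp, Lcn2 and Nos2, so their markers were read as well. Of 13 neutrophil markers, 4 reached the floor, and the granule genes Mpo, Elane, Prtn3 and Ctsg lay under it on both arrays. The log2 signals of all 13 summed to 53.1 with RA and 51.2 without RA. Of the 4, S100a9 passed 2-fold upward and Cxcr2 downward, the second at 5.74 with RA and 7.74 without RA. Of 13 macrophage markers, 4 reached the floor and Cd68 was at least 2-fold higher, at 11.31 with RA and at 5.41 without RA, and the list summed to 62.2 with RA and 55.6 without RA. The other 3 that reached the floor were C1qa, at 8.20 with RA and 8.26 without RA, Cd14, at 7.24 with RA and 6.40 without RA, and Marco, at 4.52 with RA and 4.56 without RA. Ptprc, Csf1r and Adgre1 lay under the floor on both arrays. Of 10 fibroblast, 7 melanocyte and 6 endothelial markers, 5, 3 and 2 reached the floor. Past 2-fold were Col3a1, at 4.90 with RA and 7.03 without RA, and Tek, at 6.38 with RA and 7.72 without RA.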

How the data were processed

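Total RNA was labelled with biotin by a whole-transcript kit and hybridized to GeneChip arrays, per the labels' protocols. The deposited table holds 1 log2 signal per array for 70580 probe sets. Per the submitters' processing notes, the authors used the Transcriptome Analysis Console and RMA, which corrects background, normalizes between arrays and summarizes probes. Versions, order and genome build are not given in the sources used here. The range of the values was the only sign of the log base. Both columns end at 19.93, and 670 values with RA and 963 without RA exceed 16, the log2 limit of a scanner image, so the scale was stretched in a step that is not given.

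Of the probe sets, 23446 had 1 gene symbol, 505 several and 46629 none, and only the first were used. Symbols were updated by Entrez ID against RefSeq (GRCr8), where 22077 matched and 1 changed. Calculations used Python 3.11.15, numpy 2.4.6, pandas 2.3.3 and statsmodels 0.14.6. The counting of genes past 2-fold was tested on simulated data with normal noise, its spread taken from the gene differences. Shifts of 3 log2 units were counted in 100% of cases. Of genes without a shift, 0.60% passed as higher and 0.53% as lower, far smaller shares than among the negative controls. The simulation therefore does not show how often noise on these arrays passes 2-fold.

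The 10 genes, the related lists and the cell type markers were chosen with earlier results of these data known. Named were all 10 genes and, from each related list, up to 6 genes past 2-fold with the largest differences, and receptors, partners and cofactors of the named genes. Further genes of these lists were named after their values were seen. The ranges of the negative, positive and ERCC controls, the genes of similar signal (within 0.5 units) and the chromosome neighbours were added after the data were seen. Alternatives were 4 scalings, 2 other choices of probe set, low values set to the floor, all genes kept, a higher floor at 5.45 (75th percentile) and thresholds of 1.5-fold and 4-fold. The number of arrays, 1 per group, limits the precision.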

Additional observations from a re-analysis of the deposited data

How the results depend on the processing

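The difference of each of the 10 genes was recomputed under 7 alternatives (4 scalings, 2 other choices of probe set and values raised to the floor), and the 6 genes past 2-fold kept their direction and stayed past 2-fold. Slpi ran from -3.66 to -3.53, Defb4 from -3.20 to -3.11, Defb14 from -1.32 to -1.25, Lcn2 from 1.86 to 2.01, Pigr from 1.66 to 1.82 and Nos2 from 1.26 to 1.61. Some of these alternatives could not change a gene. Slpi, Defb4, Defb14, Lcn2 and Pigr have 1 probe set each, so the 2 other choices of probe set left them as they were. Raising values to the floor could move only Pigr among the 6, since the others lay above it on both arrays. The counts of 3 higher and 3 lower held in those settings. With the 4-fold threshold 0 were higher and 2 lower, and with the higher floor of 5.45 the counts were 2 and 3. The median of the genes had no stable sign. It was -0.00034 with no floor, -1.32 with the floor of 5.45, 0.37 without Slpi, and the mean was -0.35. Over all genes above the floor, 1980 were higher and 1757 lower at 1.5-fold, and 435 and 285 at 4-fold. The share of higher genes among those past 2-fold was 58.3%, and 69.3% once a lowess fit to all probe sets was taken off, which moved the median of all genes from -0.03 to 0.08. Of the counts for the related lists, 163 stayed within 1.5 times their value and 13 did not. Counts of 0 that stayed at 0 are among the 163, so that tally says little about stability. Low signals limit Pigr, Nos2 and Defb14 most. No paired analysis was possible because there was a single array with RA and a single array without, which also left no replicate to omit.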
